A study of Mus musculus with 3 samples.

Results

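Sugar metabolism of the kidney was examined through 56 genes chosen by name: the enzymes of glycolysis, gluconeogenesis, the pentose phosphate path and the handling of galactose, fructose and glycogen. A row of the array carried the symbol of 40 of them, and 31 had a ratio on all 3 arrays and were tested, among 8449 features tested in all. The samples were whole-kidney RNA of 3 BALB/c mice with nephritis, each taken 11 days after injection of an antibody against the glomerular basement membrane (anti-GBM) and labelled with Cy5. Each was hybridised beside 1 Cy3-labelled pool of kidney RNA from 5 normal BALB/c mice. The labels name no genotype, age or sex, the dyes were not swapped, and the injection given to the pooled mice, if any, is not named.

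Values are log ratios of nephritic over normal kidney in the deposited log unit. Its base was not stated, so no fold changes are given. A positive value is read as higher in nephritis; the dye labels make this direction likely, and nothing states it for the values. A gene was called when the adjusted p of limma's moderated one-sample test over the 3 mice was under 0.05. The pool counts as 1 control sample, so this test leaves out the spread between normal mice and any dye bias. Arrays gave a usable ratio for 10998 to 11930 of 16281 rows, and an exact 0 was treated as missing. Ratios carry no level, and presence of a ratio could not identify the tissue. Of the proximal tubule markers, 8 of 14 had a ratio on all arrays, but so did 11 of 17 skeletal muscle markers. Kap and the loop of Henle gene Umod were at 0 on each array. In whole-kidney RNA, fewer cells of a type and less RNA per cell cannot be told apart.

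The kidney both uses and makes glucose. Proximal tubule cells rebuild glucose from lactate, glutamine and glycerol through pyruvate carboxylase, phosphoenolpyruvate carboxykinase, fructose bisphosphatase and glucose phosphatase, and they take up fructose. Distal nephron segments, dividing cells and activated leukocytes break glucose down through glycolysis, and the pentose phosphate path draws sugar off for NADPH and for the ribose of nucleotides. Several steps have isoforms typical of liver, muscle, brain or growing cells.

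Of the 31 tested genes, 6 were called higher and 14 lower, and 11 were not called. Over all features, 43.1% were called, 20.8% higher and 22.3% lower, against 64.5, 19.4 and 45.2% of the tested genes. The median log ratio was -0.16 over the 31 genes and -0.01 over all features. Hexokinase Hk2 had the highest log ratio of the 31 genes and fructose bisphosphatase Fbp1 the lowest, at ranks 62 from the top and 47 from the bottom of all features. Whichever mouse was left out, 3 of the 6 higher genes (Hk2, Pgd and Pgm2) and 10 of the 14 lower genes kept their call, and without mouse 2 or without mouse 3 only 3 were called higher. With exact 0 kept as a ratio, Hk2 alone of the 20 called genes kept it (adjusted p = 0.022, limma). Many ratios hardly moved in that setting, such as Pfkm from -0.40 to -0.39 and Pcx from -0.66 to -0.65. Those of Aldoc, Gapdh, Fbp1 and Gys1, which have further rows at 0 on some array, moved more. The setting also brings 3173 rows at 0 on all arrays into the fit, in which features share 1 prior for the spread. The part of those rows in the lost calls was not tested.

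**Figure D1:**
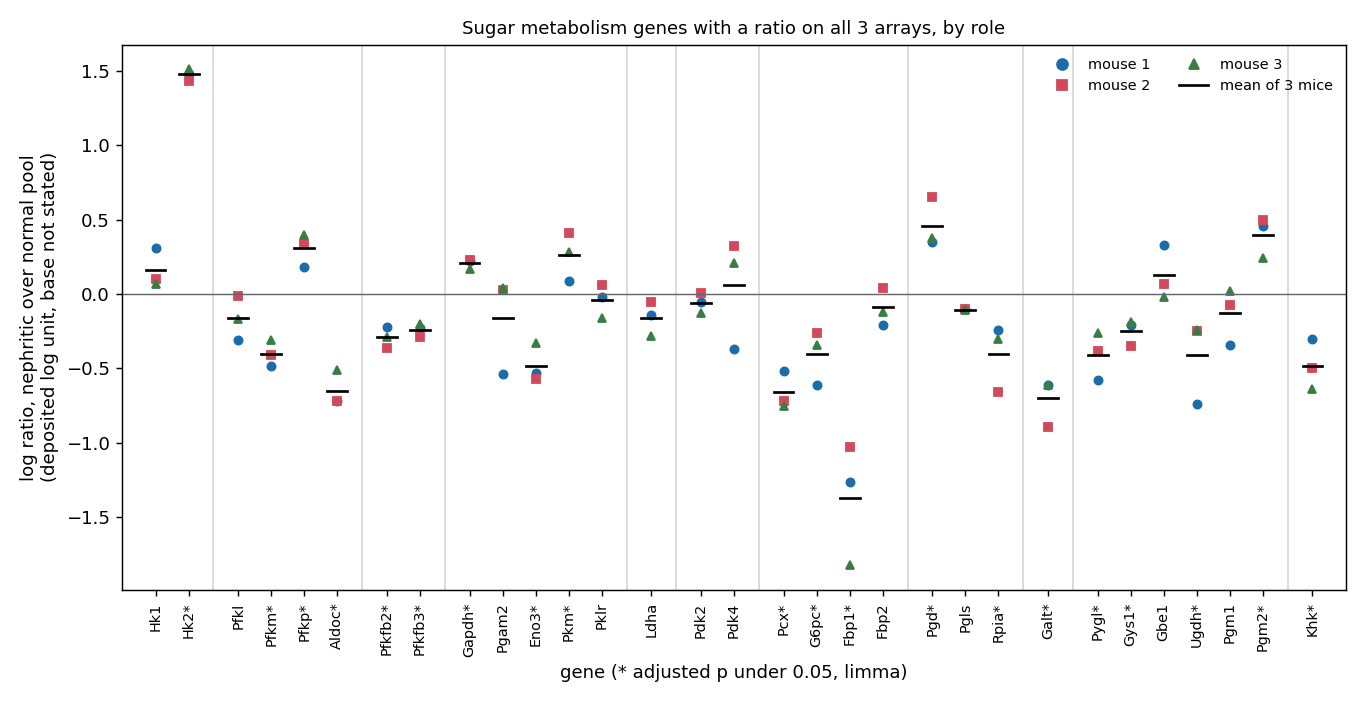
Log ratio of nephritic over normal kidney, in the deposited log unit, for the 31 tested genes; each symbol is 1 mouse, the bar is the mean of 3 mice, and lines separate the roles. Hk2 lies between 1.43 and 1.51 in the 3 mice, and Fbp1 between -1.82 and -1.03.

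Hexokinases phosphorylate glucose and so hold it in the cell. The growth- and insulin-responsive isoform Hk2 stood at 1.48, 1.43 and 1.51 in mice 1, 2 and 3, a mean of 1.48 ± 0.039 (SD, n = 3). All 3 mice were far above the pool and nearly alike, and the gene was called higher (limma adjusted p = 4.03e-05). The widely expressed isoform Hk1 stood at 0.31, 0.10 and 0.07, a mean of 0.16 ± 0.133, and was not called (adjusted p = 0.134). Hk3 had no row. Within the mice, the log ratio of Hk1 minus that of Hk2 ran from -1.44 to -1.17, with a mean of -1.31 ± 0.137. Of all features, 20.8% were called higher. Markers of dividing cells moved in the same direction as Hk2, with 8 of 9 tested called higher and list means of 0.87 to 0.96 in the mice. So did those of macrophages and leukocytes, with 12 of 12 called higher, list means of 0.80 to 0.97 and Cd14 at 0 on every array. Fibroblast and matrix markers were higher too, with 7 of 10 called higher, 0 lower and list means of 0.74 to 1.30. Neutrophil markers were mixed, with 2 of 8 tested called higher and 3 lower, beside 22.3% of all features called lower. Their list means were 0.12 to 0.21 in the mice, and the median of the list was -0.10. The part of these marker lists in the Hk2 value was not tested.

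The promoters of Hk2 and Fbp1, which mark the ends of the range, are printed with that of lactate dehydrogenase Ldha, whose ratio was not called. Each covers the 250 bases before the annotated start, 5′ to 3′, from RefSeq's mouse build GRCm38.p6. Capitals mark ACGTG on either strand (CACGT when read on the printed one), the core of the hypoxia response element, and CACGTG holds it on both. Hk2 lies at chr6:82774455-82774704 and Fbp1 at chr13:62888283-62888532, both on the minus strand, and Ldha, shown for the more upstream of its 2 listed starts, at chr7:46845554-46845803 on the plus strand.
Hk2: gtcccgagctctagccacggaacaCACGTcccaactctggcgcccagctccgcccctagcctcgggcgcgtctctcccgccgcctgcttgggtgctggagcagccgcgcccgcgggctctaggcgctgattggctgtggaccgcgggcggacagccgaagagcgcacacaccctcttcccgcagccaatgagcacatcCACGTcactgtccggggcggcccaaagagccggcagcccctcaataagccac
Ldha: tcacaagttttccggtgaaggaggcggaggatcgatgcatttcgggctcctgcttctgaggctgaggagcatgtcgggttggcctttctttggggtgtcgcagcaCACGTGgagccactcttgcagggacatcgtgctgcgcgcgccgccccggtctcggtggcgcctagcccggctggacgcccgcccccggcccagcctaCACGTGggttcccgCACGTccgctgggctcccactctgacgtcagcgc
Fbp1: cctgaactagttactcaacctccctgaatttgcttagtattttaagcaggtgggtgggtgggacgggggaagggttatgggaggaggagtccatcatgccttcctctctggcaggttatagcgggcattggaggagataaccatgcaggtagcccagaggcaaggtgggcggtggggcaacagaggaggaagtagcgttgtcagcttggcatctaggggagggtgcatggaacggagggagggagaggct
The core occurs at 2 places in the Hk2 window and at 3 in the printed Ldha window, and these letters are not in the Fbp1 window. The window of Ldha's other listed start does not hold the core. Among 32851 mouse promoter windows of this length, 16.6% held it, against 27 of 79, or 34.2%, for the 55 of the 56 genes with a promoter in the table. Counted by gene, with a match at any listed start, it was found for 3 of the 6 genes called higher, 7 of the 14 called lower and 4 of the 11 not called. These counts of genes cannot be set against the shares of windows, since some genes have several starts. The hepatocyte nuclear factor HNF1 motif, searched on both strands, was in 3 of all windows and in 0 of the 79. A match is a description of the letters, not a binding site.

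Phosphofructokinase, the committed step of glycolysis, has a liver, a muscle and a platelet isoform, of which 1 was called higher, 1 lower and 1 not called. The background over all features was 20.8% higher and 22.3% lower. The platelet isoform Pfkp stood at 0.18, 0.34 and 0.40 in mice 1, 2 and 3 (mean 0.31 ± 0.114, SD, n = 3) and was called higher (limma adjusted p = 0.0153). The muscle isoform Pfkm stood at -0.48, -0.41 and -0.31 (mean -0.40 ± 0.0834) and was called lower (adjusted p = 0.00417). The liver isoform Pfkl stood at -0.31, -0.01 and -0.17 and was not called (adjusted p = 0.142). Within the mice, Pfkp was above Pfkm by 0.66, 0.76 and 0.71. Pfkp lost its call without mouse 2 (0.29, adjusted p = 0.0637) or mouse 3 (0.26, adjusted p = 0.141).

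The bifunctional enzymes Pfkfb2 and Pfkfb3 set the level of the sugar bisphosphate that activates phosphofructokinase. Both were called lower. Pfkfb3 stood at -0.23, -0.29 and -0.20 in mice 1, 2 and 3 (mean -0.24 ± 0.0481, SD, n = 3, limma adjusted p = 0.0262). Pfkfb2 stood at -0.22, -0.36 and -0.29 (adjusted p = 0.0144), but its 3 rows had means of -0.63, -0.17 and -0.07, and only the first was called when rows were tested singly (adjusted p = 0.000563). Both calls were lost without mouse 2 (-0.25 for Pfkfb2 and -0.21 for Pfkfb3) or mouse 3 (-0.29 and -0.26).

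Aldolase splits the doubly phosphorylated sugar, and its brain isoform Aldoc stood at -0.72, -0.72 and -0.51 in mice 1, 2 and 3 (mean -0.65 ± 0.122, SD, n = 3, limma adjusted p = 0.000749). All 3 mice were below the pool. Aldoc has a further row, measured only in mouse 1, where it read 0.26, and the gene's mean moved to -0.49 when such rows were averaged in and to -0.27 with exact 0 kept. The main isoform of muscle and many other tissues, Aldoa, was listed at 0 on all arrays.

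In the lower steps of glycolysis, from glyceraldehyde phosphate to pyruvate, 2 of 5 tested genes were called higher and 1 lower. The shares over all features were 20.8 and 22.3%. Gapdh, a common reference gene, was on the array in 25 rows, of which 10 had a ratio on all arrays, 10 on fewer and 5 on none. The 10 full rows, all listed for the same sequence, had means between 0.07 and 0.30 with a median of 0.22, all above 0. Their average was 0.22, 0.23 and 0.17 in mice 1, 2 and 3, and the gene was called higher by a narrow margin (limma adjusted p = 0.0403). Of the incomplete rows, 1 read -1.24 in mouse 3 and another 0.59 in mouse 1. With these averaged in, Gapdh fell short of the threshold at 0.13 (adjusted p = 0.192). Its call also ended without mouse 2 (0.16) or mouse 3 (0.25), when ratios on 2 arrays sufficed (0.21, adjusted p = 0.0554) and with exact 0 kept (0.09).

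**Figure D2:**
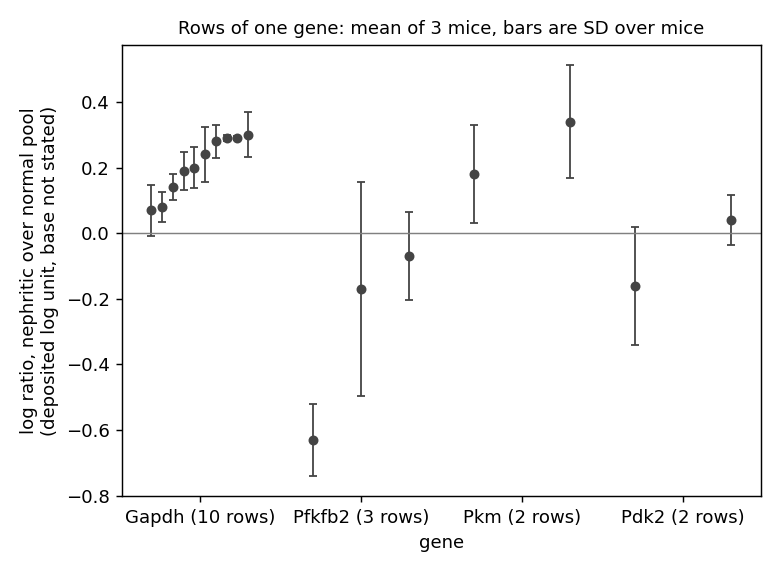
Mean log ratio of each array row over 3 mice, in the deposited log unit, for the genes with more than 1 full row; bars are SD over the mice. The 10 Gapdh rows lie between 0.07 and 0.30, and the 3 Pfkfb2 rows between -0.63 and -0.07.

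Pyruvate kinase makes the pyruvate at the end of the path. The gene of its M forms, Pkm, stood at 0.09, 0.41 and 0.28 in mice 1, 2 and 3 (mean 0.26 ± 0.159, SD, n = 3, limma adjusted p = 0.0393). The 2 Pkm rows, which share an accession, had means of 0.34 and 0.18. Leaving out mouse 2 (0.19, adjusted p = 0.198) or mouse 3 (0.25, adjusted p = 0.184) ended the call. The liver and red cell form Pklr stood at -0.02, 0.06 and -0.16, on both sides of 0, and was not called (adjusted p = 0.688). The splice forms of Pkm cannot be told apart in a gene-level ratio.

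Of the muscle isoforms of the lower steps, 1 of 2 was called. The muscle enolase Eno3 stood at -0.53, -0.57 and -0.33 in mice 1, 2 and 3 (mean -0.48 ± 0.126, SD, n = 3) and was called lower (limma adjusted p = 0.00284). The muscle mutase Pgam2 stood at -0.54 in mouse 1 and at 0.03 and 0.04 in mice 2 and 3, and was not called (adjusted p = 0.332). The difference between both genes was not tested. Among skeletal muscle markers, 4 of 11 tested were called lower and 1 higher, beside 22.3 and 20.8% of all features. The list mean was -0.28 in each mouse, but the median over the list was only -0.07. Its lowest gene, Myh1, stood at -1.52, -2.14 and -2.18 in mice 1, 2 and 3. Myh2 and Myl1 were at 0 on all arrays. The part of muscle markers in the Pfkm and Eno3 values was not tested. Pgk1 and Pgam1 were listed at 0 on all arrays, and the neuronal enolase Eno2 had ratios of 0.43 and 0.50 in mice 2 and 3 only. Eno1, Tpi1 and Gpi1 had no row.

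Across hexokinases and the upper and lower steps, 4 of 11 tested glycolytic genes were thus called higher, 3 lower and 4 not at all. Of all features, 20.8% were called higher and 22.3% lower. The median of the means of the 11 genes was -0.04. Their median within a mouse was -0.02, 0.06 and 0.04 in mice 1, 2 and 3, above 0 in 2 of them.

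Pyruvate can go to lactate or into mitochondria. The lactate dehydrogenase subunit Ldha stood at -0.14, -0.05 and -0.28 in mice 1, 2 and 3 (mean -0.16 ± 0.113, SD, n = 3), below the pool in each mouse but not called (limma adjusted p = 0.128). The other subunit, Ldhb, read 0.07 and -0.05 in mice 1 and 3 and was missing in mouse 2. Pyruvate dehydrogenase kinases keep pyruvate out of mitochondria by switching the dehydrogenase off. Pdk4, the isoform raised by fasting, stood at -0.37 in mouse 1 and at 0.32 and 0.21 in mice 2 and 3, and was not called (adjusted p = 0.756). Its mean of 0.06 moved to 0.27, a call (adjusted p = 0.0196), without mouse 1. Pdk2 stood between -0.13 and 0.01 (adjusted p = 0.538).

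Gluconeogenesis had 3 of 4 tested genes called lower and 0 higher, where 22.3 and 20.8% of all features were, with a median of -0.53 that lay between -0.56 and -0.49 in the mice. Fructose bisphosphatase Fbp1, which reverses the phosphofructokinase step, stood at -1.26, -1.03 and -1.82 in mice 1, 2 and 3 (mean -1.37 ± 0.406, SD, n = 3, limma adjusted p = 0.000483). Every mouse was far below the pool, and mouse 3 was the lowest. The gene's other row was 0 on all arrays, and with exact 0 kept Fbp1 came to -0.68, past the threshold no longer (adjusted p = 0.0868). The muscle isoform Fbp2 stood at -0.21, 0.04 and -0.12 and was not called (adjusted p = 0.353). Fbp1 minus Fbp2 was -1.05, -1.07 and -1.71 within the mice.

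Pyruvate carboxylase Pcx, the mitochondrial entry to gluconeogenesis, stood at -0.52, -0.72 and -0.75 in mice 1, 2 and 3 (mean -0.66 ± 0.128, SD, n = 3, limma adjusted p = 0.00073). The glucose phosphatase G6pc, which releases free glucose, stood at -0.61, -0.26 and -0.34 (mean -0.40 ± 0.182, adjusted p = 0.00996). All 3 mice were below the pool for both genes. Pck1, the cytosolic carboxykinase, was listed at 0 on all arrays, and Pck2 had no row. Proximal tubule markers moved in the same direction, with 7 of 8 tested called lower, beside 22.3% of all features. Their list means were -0.82 to -0.69 in the mice, and Slc7a13 and Kap were at 0 on all arrays. Loop of Henle and distal nephron markers had 5 of 9 called lower and 2 higher, with list means of -0.67 to -0.36 and Umod at 0 on all arrays. Their part in these values was not tested.

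Isoforms of a step could be set against each other within a mouse for 7 of 20 listed pairs. The difference had the same sign in all 3 mice for 6 of the 7, the exception being Pfkfb3 against Pfkfb2 (0.05 ± 0.0546, SD, n = 3). An exact two-sided sign-flip permutation test over 3 mice cannot give a p below 0.25, which these 6 reached (0.292 after Benjamini-Hochberg adjustment over the 7). Besides the differences given above, Pfkp exceeded Pfkl by 0.47 ± 0.106, Pkm exceeded Pklr by 0.30 ± 0.174, and Pfkl exceeded Pfkm by 0.24 ± 0.143.

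**Figure D3:**
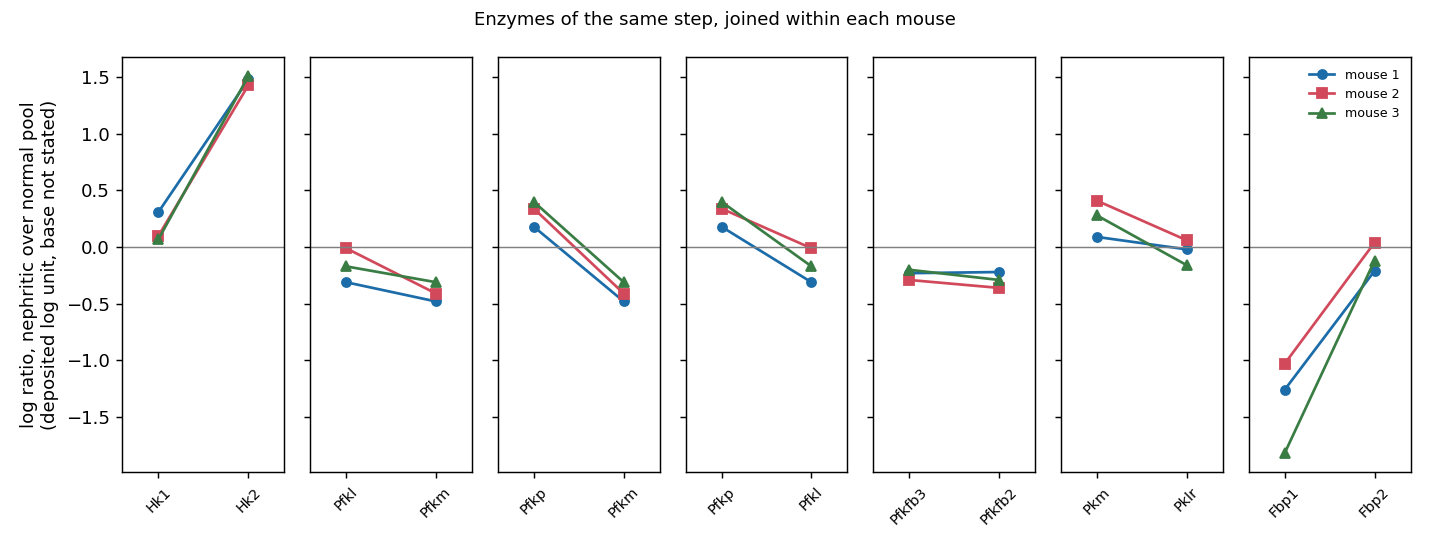
Log ratios of both isoforms of a step, in the deposited log unit, joined within each of 3 mice for 7 pairs. The lines of Hk1 to Hk2 and of Fbp1 to Fbp2 are the steepest, with mean differences of -1.31 and -1.28.

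The pentose phosphate path had 1 gene called higher, 1 lower and 1 not called among the 3 of 7 tested. Over all features, 20.8% were called higher and 22.3% lower. Pgd, which makes NADPH in the oxidative branch, stood at 0.35, 0.65 and 0.38 in mice 1, 2 and 3 (mean 0.46 ± 0.165, SD, n = 3, limma adjusted p = 0.00495). Rpia, the isomerase that forms ribose phosphate, stood at -0.24, -0.66 and -0.30 (mean -0.40 ± 0.229, adjusted p = 0.0153), and lost its call without mouse 2 (-0.27, adjusted p = 0.0648). Mouse 2 had the highest Pgd and the lowest Rpia value. Pgls, the lactonase between the oxidative steps, stood at -0.10, -0.10 and -0.11 (adjusted p = 0.233). Of the enzymes that exchange carbon units between sugars, Taldo1 read 0.25 and 0.27 in mice 2 and 3, and Tkt read -0.11 in mouse 1 only. The entry enzymes G6pdx and H6pd had no row, so the first oxidative step was not measured.

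Galactose and fructose use had 1 tested gene each, and both were called lower, as were 22.3% of all features. Galt, which exchanges galactose phosphate for glucose phosphate, stood at -0.61, -0.89 and -0.61 in mice 1, 2 and 3 (mean -0.70 ± 0.157, SD, n = 3, limma adjusted p = 0.000747). Ketohexokinase Khk, the first enzyme of fructose breakdown, stood at -0.30, -0.50 and -0.64 (mean -0.48 ± 0.169, adjusted p = 0.00412). Both genes were below the pool in every mouse. Miox, the inositol oxygenase of the proximal tubule, read -0.68 in mouse 1 only, and Sord, Gk, Galk1 and Galm had no row.

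Of the 6 tested genes listed under glycogen and nucleotide sugars, only Pgm2 was called higher and 3 were called lower. The shares over all features were 20.8 and 22.3%. The mutase Pgm2 stood at 0.46, 0.50 and 0.24 in mice 1, 2 and 3 (mean 0.40 ± 0.142, SD, n = 3, limma adjusted p = 0.00699), whereas its relative Pgm1 stood at -0.34, -0.07 and 0.02 (adjusted p = 0.278). The liver-type glycogen phosphorylase Pygl stood at -0.58, -0.38 and -0.26 (mean -0.41 ± 0.161, adjusted p = 0.00771). Glycogen synthase Gys1 stood at -0.21, -0.35 and -0.19 (mean -0.25 ± 0.0869, adjusted p = 0.0256) and lost its call without mouse 2 (-0.20) or mouse 3 (-0.28). With exact 0 kept Gys1 moved to -0.12, since its other row was 0 on all arrays. Ugdh, which makes the UDP-glucuronate used in conjugation and matrix sugars, stood at -0.74 in mouse 1 and at -0.25 and -0.24 in mice 2 and 3 (mean -0.41 ± 0.283, adjusted p = 0.0223). Without mouse 1 Ugdh moved to -0.25. The branching enzyme Gbe1 stood at 0.33, 0.07 and -0.02 and was not called (adjusted p = 0.269).

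Transporters of sugars and lactate, which are not among the 56 genes, had 6 of 12 tested called lower and 1 higher, with a median of -0.35. Over all features 22.3% were called lower and 20.8% higher, which is the background for this list and those that follow. The fructose transporter Slc2a5 stood at -1.43, -0.98 and -1.15 in mice 1, 2 and 3 (mean -1.19 ± 0.226, SD, n = 3, limma adjusted p = 0.000191). The basolateral glucose transporter Slc2a2 stood at -0.79, -0.96 and -1.06 (adjusted p = 0.000211). Slc37a4, picked with its value known, carries sugar phosphate to G6pc in the endoplasmic reticulum and stood at -0.78, -0.94 and -0.79 (adjusted p = 0.000228). Of the lactate carriers, Slc16a1 was called higher and Slc16a7 lower. Slc16a1 stood at 0.89, 0.88 and 0.95 (mean 0.91 ± 0.0357, adjusted p = 0.000132) and Slc16a7 at -1.22, -0.98 and -0.73 (mean -0.98 ± 0.248, adjusted p = 0.000476). With exact 0 kept, Slc2a5 and Slc16a7 lost their calls (-1.17 and -0.96, adjusted p = 0.0558 and 0.0742), while Slc2a2, Slc37a4 and Slc16a1 kept theirs.

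**Figure D4:**
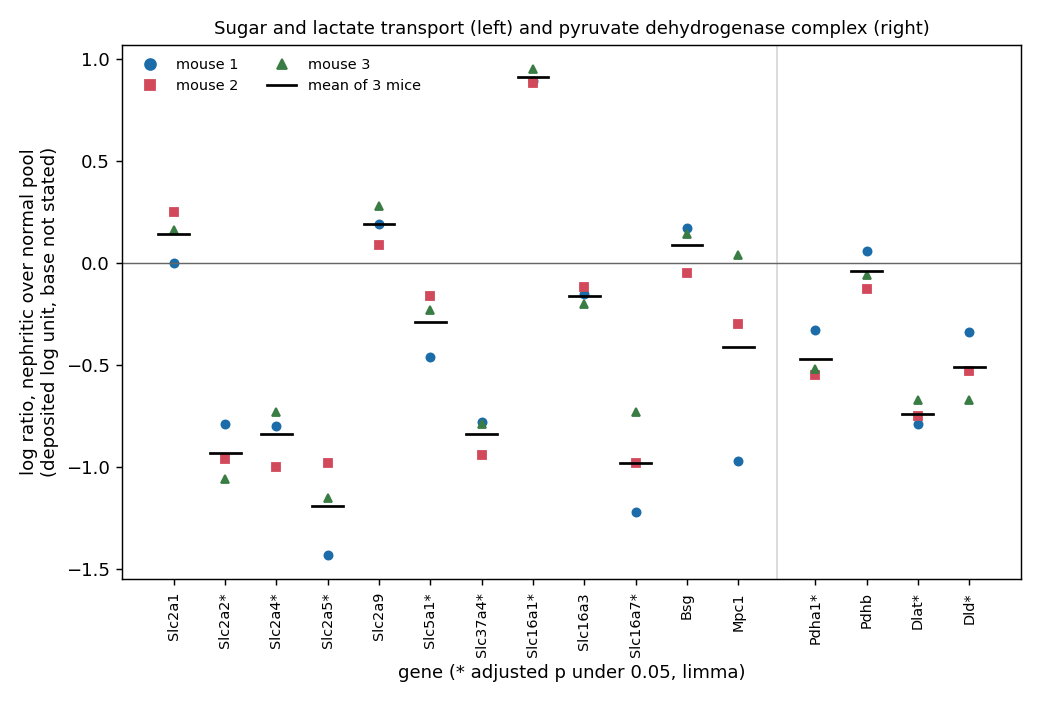
Log ratios, in the deposited log unit, of 12 transport genes and 4 genes of the pyruvate dehydrogenase complex; each symbol is 1 mouse and the bar is the mean of 3 mice. Slc16a1 lies between 0.88 and 0.95 and Slc2a5 between -1.43 and -0.98.

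The pyruvate dehydrogenase complex, which carries pyruvate into the mitochondrial cycle, had 3 of 4 tested genes called lower and 0 higher. Its core subunit Dlat stood at -0.79, -0.75 and -0.67 in mice 1, 2 and 3 (limma adjusted p = 0.000306). The catalytic subunit Pdha1 had a mean of -0.47 ± 0.118 and the shared subunit Dld one of -0.51 ± 0.166 (SD, n = 3, adjusted p = 0.00293 and 0.00303). Pdhb stood at -0.04 ± 0.0929 and was not called (adjusted p = 0.666). With exact 0 kept, Pdha1 and Dld lost their calls (adjusted p = 0.0748 and 0.0967).

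Other sugar enzymes had 8 of 19 tested called lower and 0 higher, with a median of -0.17. The lowest was Gpd1, which links glycolysis to glycerol phosphate, at -0.92, -1.25 and -0.98 in mice 1, 2 and 3 (limma adjusted p = 0.000192). Its mitochondrial partner Gpd2 had a mean of -0.53 ± 0.0482 and the cytosolic malate dehydrogenase Mdh1 one of -0.51 ± 0.0818 (SD, n = 3, adjusted p = 0.00106 and 0.00156). The mannose phosphate isomerase Mpi had a mean of -0.51 ± 0.269 (adjusted p = 0.00872), a call lost with exact 0 kept (adjusted p = 0.183).

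Regulators of sugar metabolism had 3 of 17 tested called higher, near the 20.8% of all features, and 7 lower, beside 22.3% of all features. Myc, a transcription factor of growing cells, stood at 1.27, 1.71 and 1.65 in mice 1, 2 and 3 (mean 1.54 ± 0.241, SD, n = 3, limma adjusted p = 8.85e-05), and Cebpb at 0.61, 1.07 and 0.69 (adjusted p = 0.00114). Klf15, a factor of gluconeogenic and amino acid genes, stood at -1.10, -1.03 and -1.21 (adjusted p = 8.63e-05), and the coactivator Ppargc1a at -0.76, -0.37 and -0.21 (adjusted p = 0.0156). With exact 0 kept, Cebpb and Ppargc1a lost their calls (adjusted p = 0.0892 and 0.23). The oxygen-sensing factor Hif1a was picked with its value known; it stood at 0.18, 0.37 and 0.12 and was not called (adjusted p = 0.0535).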

How the data were processed

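Arrays of 2 colours compared whole-kidney RNA of 3 nephritic mice with 1 pool of 5 normal mice. The authors deposited 1 score per row and array, a log ratio of unstated base; the scanner, normalization and build are not given in sources used here. Each array was centred on its median (0.0151 to 0.0171 before centring), rows of a gene with a ratio on all arrays were averaged, and 8449 features were tested with limma 3.58.1 in R 4.3.3 (lmFit, eBayes, prior SD 0.134, prior degrees of freedom 4.85), two-sided, with Benjamini-Hochberg adjustment at 0.05. Exact 0, in 26.7 to 32.4% of cells, was missing.

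Of the rows, 13738 had 1 gene symbol per the platform annotation (13694 updated by gene identifier with a RefSeq table of GRCm38.p6), 52 several and 2491 none. Of the 56 genes, 16 had no row and 9 had a row without a ratio on all arrays. Genes that passed with 1 sign in all mice were to be named, along with both isoforms of measured pairs and up to 4 called genes of each list of other pathway genes. The members, lists and tests were chosen with earlier results of these data known. Whether rows with fewer ratios enter an average was settled after both outcomes were seen. Scripts were tested on simulated data. The number of arrays limits the precision. The mice are named by separate labels and were treated as 3 animals.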

Additional observations from a re-analysis of the deposited data

How the results depend on the processing

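No paired analysis was possible because the pool was the only control, on every array. Without centring, with scaled arrays and with a robust prior, all 31 tested genes kept direction and side of the threshold. In each, 6 were called higher and 14 lower. With rows tested singly the counts were the same, but a gene was represented by its row with the smallest p and called if any row was. That choice favours agreement. Some other rows were not called, with adjusted p up to 0.477 for Gapdh, 0.121 for Pkm and 0.496 for Pfkfb2 (limma). For Pdk2, 1 row was at 0.04, against -0.06 for the gene. Keeping exact 0 called 986 features (549 higher, 437 lower) of 13241 tested, and 1 gene higher (Hk2) and 1 lower (Pgls, -0.09), not called otherwise; the other 19 called genes lost theirs. An unmoderated one-sample test called 0 features, higher or lower, and 0 of the genes (3060 features and 17 genes at an unadjusted p under 0.05, against 4361 and 20 in limma). Leaving out a mouse gave 2223 to 4292 features, 1102 to 2090 higher and 1121 to 2202 lower, and 3 to 9 genes higher and 10 to 14 lower; mouse 3 (2223 features, 3 and 11 genes) and mouse 2 (2754 features, 3 and 10 genes) lowered the counts. Pgam2 ranged from -0.25 to 0.03, Pklr from -0.09 to 0.02 and Pdk4 from -0.08 to 0.27, each changing sign. The glycolytic median ranged from -0.09 to 0.06, that of lower glycolysis from -0.09 to 0.12 and that of the pentose phosphate path from -0.11 to 0.08. With ratios on at least 2 arrays these medians were 0.06, 0.08 and 0.08, and without centring the last was -0.09. With exact 0 kept they were 0.00, 0.00 and -0.03, that of upper glycolysis was -0.15 and that of gluconeogenesis -0.38. Averaging in rows with fewer ratios, chosen after seeing the data, left 5 genes higher and 14 lower. The 7 isoform differences kept their direction in every setting run for them. That had to be so when a mouse was left out for the 6 with the same sign in all 3 mice. Asking for ratios on at least 2 arrays, or averaging in rows with fewer ratios, left the differences unchanged. The kept direction is therefore little evidence of stability. Signal over background was not analysed here.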
